A study of Mus musculus with 3 samples.

Results

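This account covers 8 long noncoding RNA genes, Malat1, Neat1, Gas5, Snhg1, Snhg5, Snhg6, Snhg8 and Snhg12, chosen by name as nuclear transcripts and as hosts of small nucleolar RNAs (snoRNAs). All 8 were found once each among the 50600 annotated genes, by their gene identifiers. Total RNA was sequenced from primary mouse cells, strain C57BL/6NJ, that carry the label T-helper 1 (Th1), a subset of CD4 T cells known for interferon gamma. There was 1 group of 3 libraries, labelled as biological replicates 1, 2 and 3, with a shared donor identifier and separate biosamples. Age and stage were given as unknown, sex as not collected, and no treatment was named. A time of 0 hours stood in the table headers, and the linked library protocol has polyA+ RNA in its name although the assay is labelled total RNA. With no second group, values were compared between genes within a library and between the 3 libraries, so the tests below speak of these libraries and not of a condition.

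Long noncoding RNAs of this kind work, as far as is known, in or through the nucleus. Malat1 is retained in nuclear speckles, where splicing factors gather, and Neat1 is the scaffold on which paraspeckles are built together with the RNA-binding proteins Nono and Sfpq. Gas5 and the Snhg genes carry snoRNAs in their introns. These are released on splicing and guide ribose methylation (box C/D type) or pseudouridylation (box H/ACA type) of ribosomal RNA, while the spliced exons of several hosts are short-lived substrates of nonsense-mediated decay. Gas5 was first found in growth-arrested cells and can bind the glucocorticoid receptor.

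The libraries held 3647366, 4305077 and 2510319 fragments counted to genes in replicates 1, 2 and 3. Counts had been made on a stated strand, and genes whose exons overlap exons of the other strand held 63.1%, 53.8% and 76.5% of them, so replicate 3 stood apart. All 4 helper T cell and all 4 naive T cell markers reached 1 TPM in each library, with Cd4 at 1849, 2807 and 662 counts. Of 4 Th1 markers, Tbx21 had 1, 3 and 0 counts, Ifng also had 1, 3 and 0, and Cxcr3 had 0 in all. The fourth, the interleukin receptor gene Il12rb2, whose exons overlap a gene of the other strand, had 93, 89 and 102 counts. With 3 of 4 Th1 markers at or near 0, the cells are called here by their label only. Of the cytotoxic T cell markers, Cd8a had 0, 1 and 0 counts and Cd8b1 27, 53 and 17. Of the B cell markers, Cd79a had 91, 138 and 108 counts and Igkc 0 in all. Of the myeloid markers, Lyz2 had 0, 1 and 0 counts and Itgam 3, 9 and 1, while Csf1r, which also has exon overlap, had 744, 638 and 699. In bulk RNA, fewer cells of a type and less RNA per cell cannot be told apart. Whether the stated strand matched that of the libraries was not tested, so marker counts at or near 0 do not show absence of the RNA.

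The sequence that matters most for reading these values lies at Malat1, where fragments of the same bases were counted to different genes by strand. Gm37376 is a short feature of the plus strand inside the Malat1 exon, and its last 60 bases are shown with the same bases read as Malat1 (chr19:5802334-5802393, mm10, from GENCODE M21 transcripts). In Malat1 the stretch starts at base 280 of the transcript.
Gm37376, plus strand: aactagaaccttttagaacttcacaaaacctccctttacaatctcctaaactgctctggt
Malat1, minus strand: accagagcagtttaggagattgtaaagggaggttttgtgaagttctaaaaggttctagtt

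The snoRNAs that give the hosts their name are shown for 4 of them, since the counts of these features are described below. Capitals mark the first TGATGA (box C) and the last CTGA (box D) in the box C/D snoRNAs, and the last ACA in the H/ACA snoRNA, searched on the snoRNA strand only. TGATGA with CTGA was found in 18 of the 27 snoRNA features inside these hosts and in 25.2% of the 1507 annotated snoRNA transcripts of the mouse. ACA in the last 6 bases was found in 5 of the 27 and in 45.8% of all.
Snord47, in Gas5 (chr1:161038082-161038158, plus strand): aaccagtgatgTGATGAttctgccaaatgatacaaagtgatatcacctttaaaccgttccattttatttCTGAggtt
Snord50a, in Snhg5 (chr9:88521529-88521600, minus strand): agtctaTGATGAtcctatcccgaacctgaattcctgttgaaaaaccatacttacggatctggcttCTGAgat
Snord87, in Snhg6 (chr1:9942463-9942549, minus strand): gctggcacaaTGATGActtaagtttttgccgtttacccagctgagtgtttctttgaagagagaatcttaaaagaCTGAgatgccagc
Snora24, in Snhg8 (chr3:123507937-123508066, minus strand): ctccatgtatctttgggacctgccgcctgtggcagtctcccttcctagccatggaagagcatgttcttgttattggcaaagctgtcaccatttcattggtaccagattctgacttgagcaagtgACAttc

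Transcripts of snoRNA hosts are known to start with a run of pyrimidines, the terminal oligopyrimidine feature that ribosomal protein genes share. RefSeq promoters (GRCm38.p6) were given for 6 of the 8 genes, and Neat1 and Snhg6 had no entry. The 25 bases before the start site and the 25 from it on are shown for the 5 hosts with an entry, so that this start can be read beside their levels. Capitals mark the longest unbroken run of C and T, in any order and on the gene's strand, that touches the window from 5 bases before the start to 10 bases after it.
Gas5, chr1:161035141-161035190, plus strand: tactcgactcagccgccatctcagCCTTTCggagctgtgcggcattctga
Snhg1, chr19:8723462-8723511, plus strand: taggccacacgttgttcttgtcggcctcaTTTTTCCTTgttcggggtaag
Snhg5, chr9:88522873-88522922, minus strand: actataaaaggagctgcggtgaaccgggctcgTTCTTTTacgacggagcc
Snhg8, chr3:123508312-123508361, minus strand: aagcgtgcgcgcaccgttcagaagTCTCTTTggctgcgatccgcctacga
Snhg12, chr4:132308653-132308702, plus strand: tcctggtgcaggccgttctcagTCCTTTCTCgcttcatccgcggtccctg
The runs measured 9 bases in Snhg1 and Snhg12, a length reached by 7.89% of 32851 promoters, and 7 bases in Snhg5 and Snhg8, reached by 16.3%. At Gas5 the run was 6 bases at the start shown, a length reached by 24.4% of promoters, and 3 bases at a second, upstream RefSeq start. In Snhg1 and Snhg5 the marked run begins after the RefSeq start site, so these starts do not lie in it. In Gas5, Snhg8 and Snhg12 the marked run covers the start site shown. Malat1 had a run of 4 bases, and the median promoter also had 4. A match of letters describes the window and does not show a site in use.

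Malat1 was the highest of the 8 genes per length and Neat1 the lowest. Levels are counts per exonic length scaled to a fixed sum in each library (TPM), computed from the deposited counts. Malat1, a single-exon gene in the counting annotation (chromosome 19, 5795690 to 5802672, minus strand, lincRNA), had 6946, 4490 and 954 counts in replicates 1, 2 and 3, which are 528, 328 and 91.4 TPM. The 3 libraries followed no common level, with replicate 1 the highest and replicate 3 the lowest. Its mean was 316 ± 219 TPM (SD, n = 3), above that of 97.4% of the genes with a count. Malat1 took 0.190% of the fragments of replicate 1 (95% exact Clopper-Pearson interval 0.186 to 0.195), 0.104% of replicate 2 (0.101 to 0.107) and 0.0380% of replicate 3 (0.0356 to 0.0405). Its rank by count among all genes was 27, 92 and 504 in replicates 1, 2 and 3.

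Neat1 lies on the same strand of chromosome 19 (5824708 to 5845478, lincRNA) and is counted over 20771 bases, of which 4 annotated transcripts take between 711 and 20771. It had 351, 1066 and 110 counts, or 8.98, 26.2 and 3.54 TPM, in replicates 1, 2 and 3. Replicate 2 was the highest, not replicate 1 as for Malat1. The mean was 12.9 ± 11.8 TPM (SD, n = 3). Because short and long Neat1 transcripts share their first part and the counts are per gene, the isoforms were not told apart, and the length of the long form sets the TPM.

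The ratio of Malat1 to Neat1 within a library does not depend on how libraries are scaled. Malat1 exceeded Neat1 by 58.9-fold, 12.5-fold and 25.8-fold in TPM in replicates 1, 2 and 3, and by 19.8-fold, 4.21-fold and 8.67-fold in counts. The mean log2 TPM ratio was 4.72 ± 1.11 (SD, n = 3, exact two-sided sign-flip test p = 0.25, the smallest that 3 libraries allow). The ratio was thus highest in replicate 1 and lowest in replicate 2.

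Gas5 was the highest snoRNA host. Gas5 (chromosome 1, 161034422 to 161038539, plus strand, processed transcript) had 544, 904 and 153 counts, or 76.9, 122.7 and 27.2 TPM, in replicates 1, 2 and 3, with a mean of 75.6 ± 47.8 TPM (SD, n = 3). Its counted length of 3760 bases joins the exons of all transcripts, whereas the 25 annotated Gas5 transcripts measure 346 to 2556 bases. A spliced Gas5 transcript therefore has a lower TPM here than its own length would give.

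Snhg8 (chromosome 3, 123507552 to 123508404, minus strand), the host of Snora24, followed with 67, 123 and 51 counts, or 41.7, 73.6 and 40.0 TPM, in replicates 1, 2 and 3. Replicates 1 and 3 lay close together and replicate 2 above them. Snhg1 (chromosome 19, 8723475 to 8726443, plus strand), which hosts 8 snoRNA features, had 158, 235 and 58 counts, or 28.3, 40.4 and 13.1 TPM. Snhg12 (chromosome 4, 132308678 to 132311024, plus strand) had 86, 127 and 24 counts, or 28.1, 39.9 and 9.88 TPM. In both, replicate 2 was the highest and replicate 3 the lowest.

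Snhg5 (chromosome 9, 88521050 to 88522929, minus strand), the host of Snord50a and Snord50b, had 64, 116 and 26 counts, or 19.7, 34.2 and 10.1 TPM, in replicates 1, 2 and 3. Snhg6 (chromosome 1, 9941959 to 9944118, minus strand), the host of Snord87, had 32, 64 and 8 counts, or 14.8, 28.5 and 4.67 TPM. It was the gene with the fewest counts, and its level in replicate 3 rests on these 8 counts. The means were 27.2 ± 13.7 TPM for Snhg1, 25.9 ± 15.1 for Snhg12, 21.3 ± 12.2 for Snhg5 and 16.0 ± 11.96 for Snhg6 (SD, n = 3). Snhg8 averaged 51.8 ± 18.9 TPM.

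**Figure D1:**
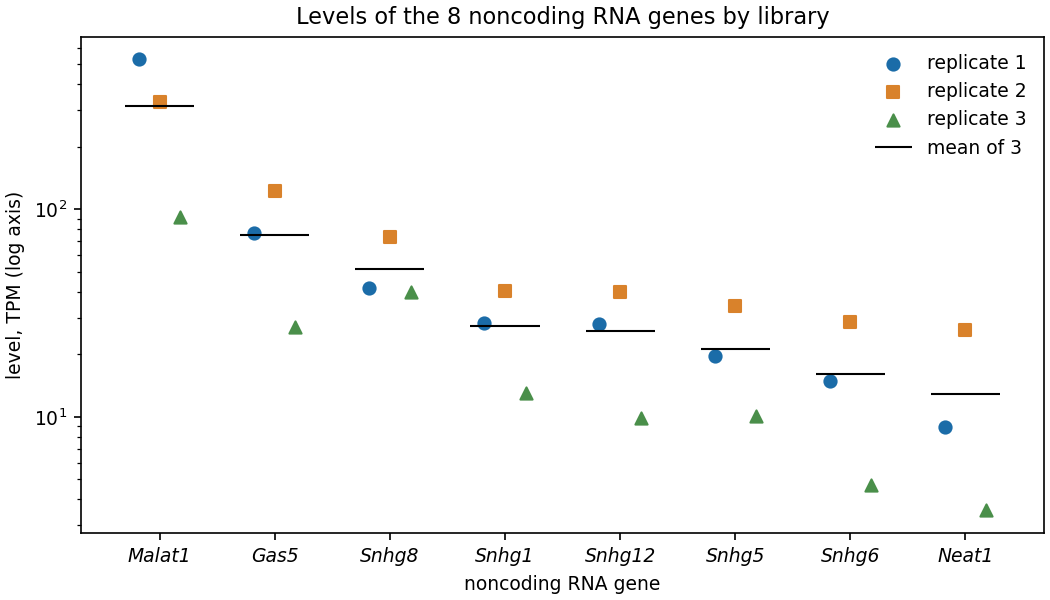
Level of each of the 8 genes in TPM (vertical log axis) in replicates 1, 2 and 3 (points), with the mean of the 3 libraries as a line. Malat1 stands above the other genes in each library, with 528, 328 and 91.4 TPM, and Neat1 lowest, with 8.98, 26.2 and 3.54 TPM.

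The order by mean TPM was Malat1, Gas5, Snhg8, Snhg1, Snhg12, Snhg5, Snhg6 and Neat1. Replicates 1 and 2 each had this order, and in replicate 3 Snhg8 stood above Gas5 and Snhg5 above Snhg12. Neighbours were taken as separate where the ratio had the same sign in all 3 libraries and its mean exceeded its SD, which held for 4 of 7 pairs. These were Malat1 over Gas5 (mean log2 TPM ratio 1.98 ± 0.71), Snhg8 over Snhg1 (1.01 ± 0.54), Snhg5 over Snhg6 (0.59 ± 0.44) and Snhg6 over Neat1 (0.41 ± 0.30). Gas5 over Snhg8 (0.35 ± 0.79), Snhg1 over Snhg12 (0.14 ± 0.22) and Snhg12 over Snhg5 (0.24 ± 0.27) did not differ beyond their spread. The exact sign-flip test could give no pair a p under 0.25. Without length correction Snhg8 was below Snhg1 and Snhg6 below Neat1, so both orders rest on the counted lengths. Without replicate 3, 6 of the 7 pairs counted as separate.

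The next question was whether the 3 libraries differed in these genes by more than counting error. Effective library sizes came from the TMM method, a trimmed mean of gene-wise ratios, and scaled counts were tested per gene by a Poisson chi-square test, with Benjamini-Hochberg adjustment over 10662 genes kept by a filter on low counts, and all 8 genes passed that filter. Of the 8 genes, 5 differed beyond counting error at an adjusted p of 0.05, namely Malat1, Neat1, Gas5, Snhg6 and Snhg12. The share over all genes tested was 62.4%, so a call was common, and among long noncoding biotypes it was 89.4%. The median gene of the 8 spanned 0.92 on the log2 scale between its highest and lowest library, against 0.80 over all tested genes.

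Malat1 had the widest span of the 8 genes under this scaling, while with total counts Neat1 did (2.49 on the log2 scale, against 2.32 for Malat1). Without replicate 1 the log2 span of Malat1 was 0.64, against 1.82 with all 3 libraries, and was below those of Neat1, Snhg6, Gas5 and Snhg12. Its scaled counts (CPM) were 1821, 832 and 517 in replicates 1, 2 and 3, a 3.53-fold span with a chi-square of 2671 on 2 degrees of freedom. Neat1 stood at 92.0, 197.6 and 59.6 CPM, a 3.32-fold span (adjusted p = 2.23e-60, Poisson chi-square test). Gas5 stood at 142.6, 167.6 and 82.8 CPM (adjusted p = 7e-15), Snhg6 at 8.39, 11.9 and 4.33 CPM (adjusted p = 0.0205) and Snhg12 at 22.5, 23.5 and 12.99 CPM (adjusted p = 0.0394). In Neat1, Gas5, Snhg6 and Snhg12 replicate 2 was the highest and replicate 3 the lowest.

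Snhg8, Snhg1 and Snhg5 did not pass the test. Snhg8 was at 17.6, 22.8 and 27.6 CPM (adjusted p = 0.0682) and was the gene of the 8 that was highest in replicate 3. Snhg1 was at 41.4, 43.6 and 31.4 CPM (adjusted p = 0.115) and Snhg5 at 16.8, 21.5 and 14.1 CPM (adjusted p = 0.11). Their spans of 1.57-fold, 1.39-fold and 1.53-fold could not be told from counting error at this depth.

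Replicate 3 was the lowest library for 7 of the 8 genes, against 46.7% of all genes tested. That share moved with the annotation of the other strand, being 26.4% for genes with exon overlap, 55.8% for genes with an opposite-strand gene no farther than 5 kb and 68.5% for genes with none that near. Malat1 and Snhg6 belong to the overlap class, Snhg5 to the class with none, and the other 5 genes to the class within 5 kb. The median log2 ratio of replicate 3 to replicate 2 was 1.00 for the overlap class, −0.28 for the class within 5 kb and −0.45 for the class with none. Malat1 stood at −0.69 and Snhg6 at −1.36, both below the 1.00 of their class. Neat1 stood at −1.72, Gas5 at −1.01, Snhg12 at −0.83 and Snhg1 at −0.47, all below the −0.28 of theirs, while Snhg8 stood at 0.27. Snhg5, at −0.59, lay near the −0.45 of its class.

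Because the libraries differed in the share of counts on genes with exon overlap, the test was repeated with TMM factors from isolated genes alone, those farther than 5 kb from any gene of the other strand. This moved the median log2 ratio of replicate 3 to replicate 2 over all tested genes to 0.35, against −0.11 under the first scaling, and to 0.00 for the genes it was scaled to. Of the 8 genes 4 were then called, Malat1, Neat1, Gas5 and Snhg8, against 53.1% of all genes. Snhg6 (adjusted p = 0.199) and Snhg12 (adjusted p = 0.411) lost their call, and Snhg8 gained it (adjusted p = 0.00229). Replicate 3 was lowest for 6 of the 8 genes, against 27.9% of all genes. The median log2 span was 0.75 for the 8 genes, against 0.72 over all tested genes.

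Under this scaling Malat1 was 2.45-fold higher in replicate 1 than in replicate 2, and Neat1 was 1.92-fold higher in replicate 2 than in replicate 1. Snhg8 was 1.66-fold higher in replicate 3 than in replicate 2, and Gas5 in replicate 3 was at 0.679 of its level in replicate 2. Snhg1 spanned 1.08-fold between its highest and lowest library and Snhg5 1.14-fold, the smallest spans of the 8 genes. The 2 scalings gave Malat1 and Neat1 the same highest library, and the order of the libraries changed for Snhg1, Snhg5 and Snhg12. Without replicate 3, 3 of the 8 genes were called under the first scaling, Malat1, Neat1 and Gas5, against 28.1% of all genes.

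**Figure D2:**
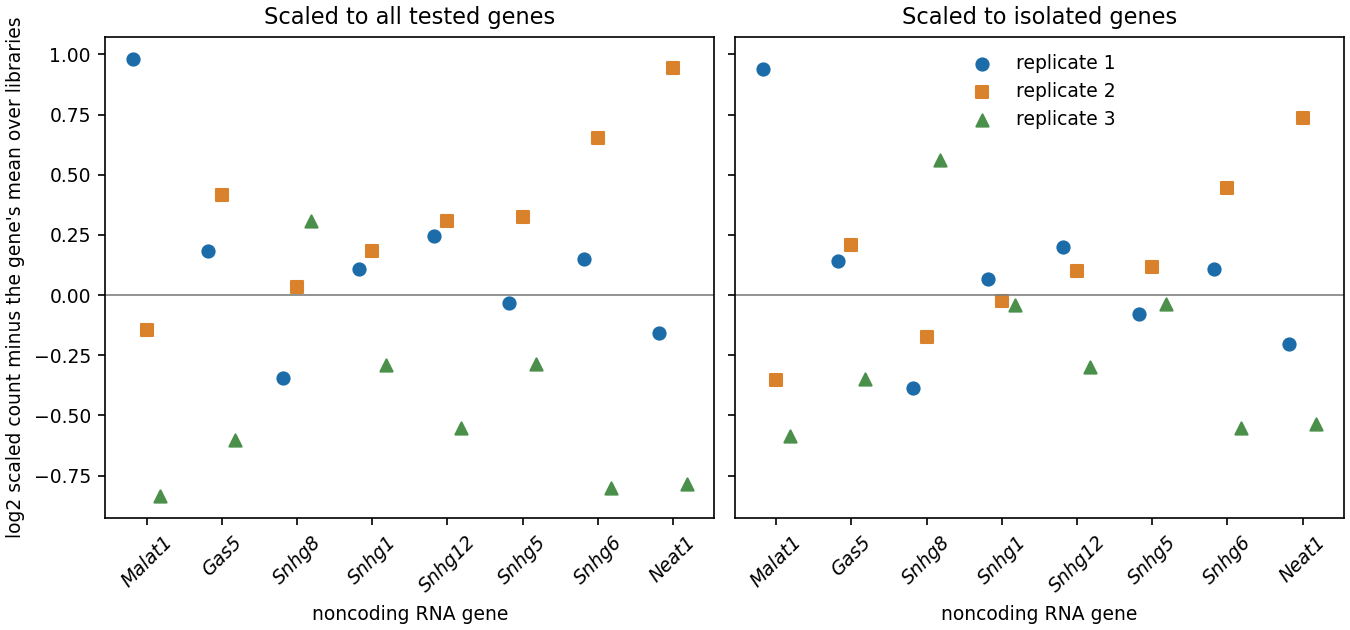
Scaled count of each gene in replicates 1, 2 and 3 (points) as log2 difference from that gene's mean over the libraries, with library sizes from all tested genes (left) or from isolated genes, farther than 5 kb from any opposite-strand gene (right). Malat1 is highest in replicate 1 and Neat1 in replicate 2 on both sides, while Snhg1 and Snhg5 close up on the right, to spans of 1.08-fold and 1.14-fold.

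Malat1 had far fewer counts per base than the features annotated on its other strand. Malat1 had 995, 643 and 137 counts per kb of exon in replicates 1, 2 and 3, whereas Gm37376 had 39512, 13803 and 16121. Gm37376 has 453 exonic bases (chromosome 19, 5801941 to 5802393, plus strand) and no determined coding status in the annotation. A second feature of the plus strand, ENSMUSG00000092267 (chromosome 19, 5797562 to 5798549), which had no symbol in the annotation used, had 42755, 13647 and 14784 counts per kb over 425 bases. All exonic bases of both features lie inside the Malat1 exon, where they cover 12.6% of it.

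Malat1 per base thus stood at 2.52%, 4.66% and 0.847% of Gm37376 in replicates 1, 2 and 3, and at 2.33%, 4.71% and 0.924% of the second feature. The features held 36070, 12053 and 13586 counts together, against 6946, 4490 and 954 for all of Malat1. Their own scaled counts moved otherwise than those of Malat1. The log2 ratio of replicate 3 to replicate 2 was −0.69 for Malat1, against 1.77 for Gm37376 and 1.66 for the other feature. All 3 were higher in replicate 1 than in replicate 2, by a log2 ratio of 1.13 for Malat1, 2.02 for Gm37376 and 2.15 for the other.

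Such inner features were common in these tables. There were 204 pairs in which a feature of at least 200 exonic bases has at least 90% of them inside exons of an opposite-strand gene, and which held at least 60 counts together. Per base, 165, 160 and 165 of the inner features exceeded the outer gene in replicates 1, 2 and 3. The median excess among pairs with counts in both genes was 25.5-fold, 18.03-fold and 54.0-fold. Gm37376 ranked 65, 82 and 62 among the 193, 192 and 181 ratios that could be formed, counted from the highest, and ENSMUSG00000092267 ranked 59, 83 and 66. Whether the strand setting of the counting matched the strand of the libraries was not tested. Where it did not, the counts given for Malat1 and the other 7 genes would be those of RNA read from the opposite strand. The same would hold for every other gene counted here, the cell type markers among them.

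**Figure D3:**
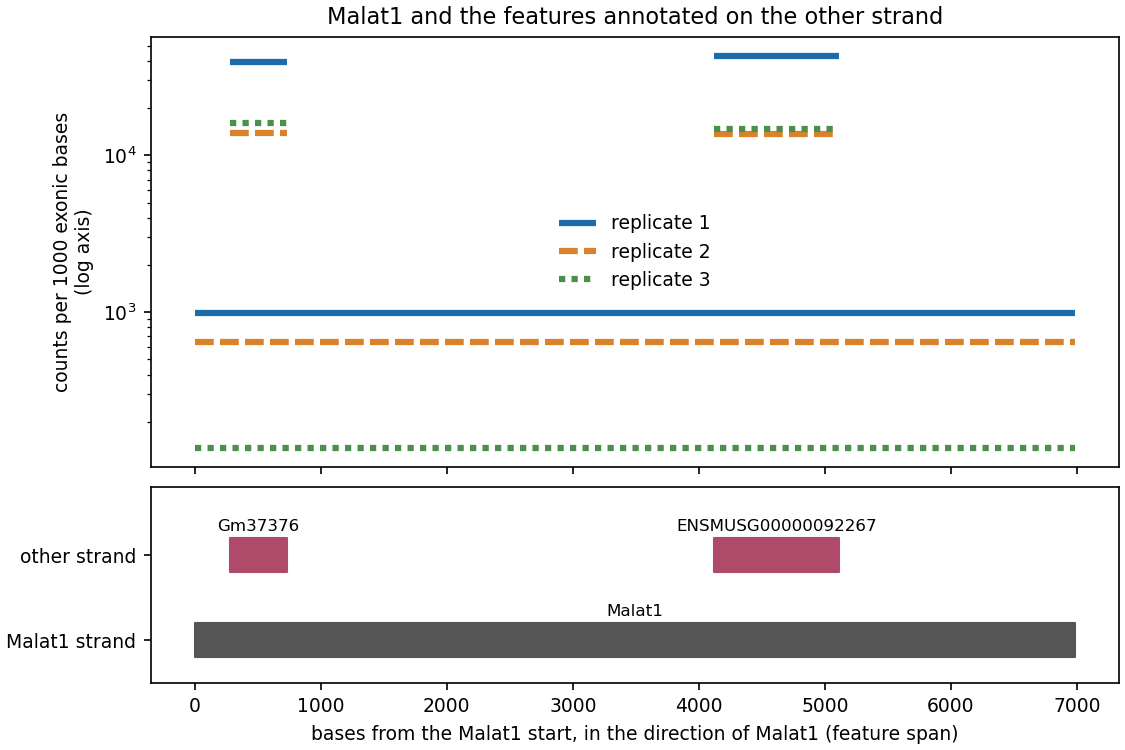
Counts per kb of exon (vertical log axis, upper panel) of Malat1 and of the features annotated on its other strand, drawn over their spans by distance from the Malat1 start (horizontal axis, bases), with the annotation below. Malat1 stands at 995, 643 and 137 in replicates 1, 2 and 3, and Gm37376 above it at 39512, 13803 and 16121.

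The snoRNA hosts showed no common pattern beside the genes of their other strand. Gas5 shares no exonic base with Zbtb37, a zinc finger gene of the other strand whose span reaches into that of Gas5, and per base it exceeded Zbtb37 by 11.5-fold, 12.5-fold and 10.8-fold in replicates 1, 2 and 3. Snhg6 shares 127 exonic bases with Mcmdc2, a gene related to the minichromosome maintenance helicases, at their ends. It had 32, 64 and 8 counts, against 124, 115 and 184 for Mcmdc2, which is 1.33-fold, 2.87-fold and 0.224-fold per base. Snhg6 and Mcmdc2 thus changed places in replicate 3, where the log2 ratio to replicate 2 was −1.36 for Snhg6 and 2.20 for Mcmdc2.

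The remaining genes had neighbours on the other strand but no overlap of spans. Neat1 lies 145 bases from Frmd8os, an antisense gene that also shares exonic bases with Frmd8. Neat1 had 351, 1066 and 110 counts, against 850, 918 and 1038 for Frmd8os over 612 bases, so that per base it stood at 1.22%, 3.42% and 0.312% of it. Snhg1 lies 106 bases from Slc3a2, which encodes the heavy chain of amino acid transporters, and both had like counts per base, with ratios of 0.939, 1.10 and 1.35. Snhg8 exceeded Prss12, a protease gene 955 bases away, by 6.01-fold to 19.4-fold per base, and Snhg12 exceeded Trnau1ap, a selenocysteine tRNA-associated protein gene 739 bases away, by 1.05-fold to 2.43-fold. Snhg5 had no opposite-strand gene within 5 kb.

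**Figure D4:**
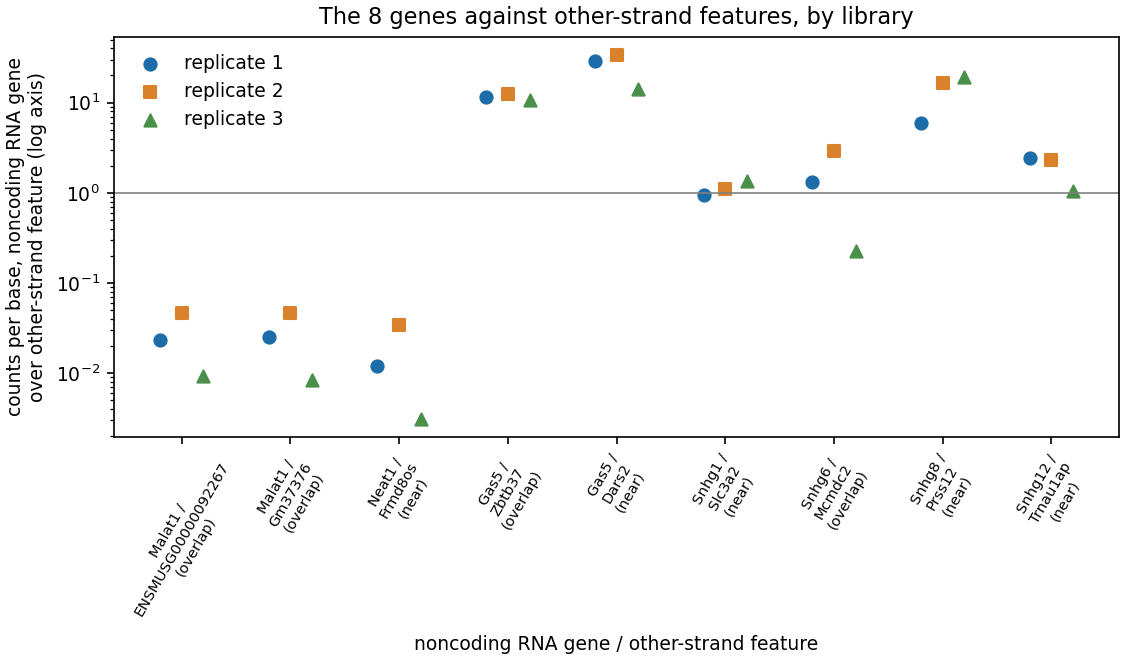
Counts per base of each noncoding RNA gene over those of the feature on its other strand (vertical log axis) in replicates 1, 2 and 3, for features whose spans overlap or that lie within 5 kb (near). Malat1 and Neat1 are below 1 in each library, Gas5 and Snhg8 above it, and Snhg6 over Mcmdc2 is 1.33, 2.87 and 0.224.

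Hosted snoRNAs were nearly absent from the counts. Inside the 6 hosts lie 27 annotated snoRNA features, 10 in Gas5, 8 in Snhg1, 5 in Snhg12, 2 in Snhg5 and 1 each in Snhg6 and Snhg8. Snord87 in Snhg6 had 2, 1 and 0 counts in replicates 1, 2 and 3, and the other 26 features had 0 counts in all 3 libraries. Of the 27 features, 24 lie wholly within bases that the annotation also gives to host exons. A fragment on bases of 2 genes of the same strand is by default not counted, and the counting command held no option to count it, so these 24 could receive no count and their 0 sets no limit on the snoRNA. Snord87 and both entries of Snora16a in Snhg12 lie outside host exons. The Snora16a entries (132309464 to 132309600 and 132309465 to 132309600) cover nearly the same bases of 1 strand, so by the same rule their 0 sets no limit either.

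The same rule takes fragments from the hosts. Bases shared with inner features made up 20.9% of the exonic bases of Snhg1, 20.5% of Snhg12, 17.8% of Gas5, 15.2% of Snhg8 and 8.32% of Snhg5, against 0% for Snhg6. In Malat1 the share was 1.23% and in Neat1 1.85%, from 4 short RNA features that had 0 counts. Over the whole annotation 196 of 1507 snoRNA features had a count in some library, with 1164, 933 and 884 counts in replicates 1, 2 and 3.

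Other noncoding hosts were compared next. Of 15 further noncoding snoRNA hosts, 11 were found by symbol, 5 reached 1 TPM in all 3 libraries and Snhg11 and Snhg18 had 0 counts. Counts of Snhg14, whose exons overlap those of Ube3a on the other strand, were 1779, 1531 and 1591. Epb41l4aos had 34, 55 and 0 counts, Zfas1 had 79, 106 and 19 and Snhg15 had 26, 35 and 18. Of the 5 that passed the filter, 4 were called by the Poisson chi-square test, against 62.4% of all genes, and 2 under scaling to isolated genes, against 53.1%, where Snhg17 and Zfas1 lost their call. Zfas1 and Snhg17 were lowest in replicate 3 like Gas5, and Snhg14, Snhg15 and Snhg20 were not.

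Among 14 other long noncoding RNAs of the nucleus, 6 reached 1 TPM in all 3 libraries and Meg3 and Miat had 0 counts. Of 6 tested, 3 were called, against 62.4% of all genes, and 2 under scaling to isolated genes, against 53.1%. Tsix and Xist, the antisense pair of X inactivation, were the highest, and they split the libraries. Tsix had 1351, 2746 and 11 counts and Xist 665, 2393 and 1 in replicates 1, 2 and 3, with exons that overlap each other. Whether the strand setting matched the libraries was not tested, so counts given to Tsix may be of Xist RNA and the reverse. Xist, with 1 count in replicate 3, did not pass the filter, which asked for a minimum in all 3 libraries. It was thus not among the 6 tested. Tug1 had 351, 608 and 163 counts. Rn7sk, the RNA that holds the elongation factor P-TEFb inactive, had 118, 19 and 9 counts and was thus highest in replicate 1 like Malat1. Rn7s1, Rn7s2, Rny1 and Rny3 had 0 counts.

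Genes that encode proteins known to work with these RNAs were compared by RNA level, and no protein was measured. All 14 paraspeckle protein genes reached 1 TPM in each library, with Sfpq at 122.7 ± 36.9, Hnrnpk at 95.3 ± 45.5, Ewsr1 at 93.4 ± 49.4 and Taf15 at 84.5 ± 44.4 TPM (SD, n = 3). Of them, 11 differed between libraries beyond counting error, against 62.4% of all genes, but 6 under scaling to isolated genes, against 53.1%. Replicate 3 was lowest for 10 of the 14, against 46.7% of all genes. Over all genes that share ran from 26.4% with exon overlap to 68.5% with no opposite-strand gene within 5 kb, and 6 of the 14 have exon overlap. Scaling to isolated genes gave 27.9% over all genes, and no such number is given for the 14. Of 17 snoRNP protein genes 16 reached 1 TPM in each library, led by Nhp2 at 58.6 ± 12.8 TPM, a protein of H/ACA particles, and 8 of 15 tested were called, against 62.4% of all genes, or 9 under scaling to isolated genes, against 53.1%. The methyltransferase of box C/D particles, Fbl, stood at 20.1 ± 8.35 TPM.

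All 14 nonsense-mediated decay genes reached 1 TPM in each library, with Eif4a3 at 48.0 ± 21.6 and Upf1 at 46.8 ± 20.2 TPM (SD, n = 3), and 6 of 14 were called under either scaling, against 62.4% and 53.1% of all genes. Of 8 genes for Malat1 end processing and binding, 7 did so, led by Elac2, which trims tRNA-like ends, at 16.4 ± 8.95 TPM. Under the first scaling the median log2 span between libraries was 0.47 for the paraspeckle genes, 0.76 for the snoRNP genes and 0.44 for the decay genes. It was 0.80 for all genes tested and 0.92 for the 8 noncoding RNAs. By class it was 1.18 for genes with exon overlap and 0.64 for isolated genes, and the lists were not matched for class or count level. Under scaling to isolated genes it was 0.72 for all genes tested and 0.75 for the 8.

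The gene nearest to each of the 8 in scaled counts over the 3 libraries was found as a description, by Euclidean distance in log2 CPM. For Snhg1 it was Rab1b, with 158, 238 and 57 counts in replicates 1, 2 and 3, at a distance of 0.0306. For Gas5 it was Cd28, which encodes a costimulatory receptor of T cells, with 515, 867 and 160 counts, at 0.118. Snhg5 was nearest to Prkaca, Snhg12 to Smarcd1, Snhg6 to Zfp953 and Snhg8 to Fbxw4, at distances of 0.0653 to 0.152. Malat1 and Neat1 had no close neighbour, with Gm42418 at 0.639 and Trib2 at 0.475. Over 3 libraries such a distance mostly reflects level.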

How the data were processed

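Total RNA-seq of 3 libraries of cells labelled T-helper 1 was used. The authors deposited raw counts of fragments per gene, which featureCounts 1.4.6-p4 made over GENCODE M13 exons joined by gene, in paired mode, requiring both mates to map and with strand option 1, per the file headers. Names of the alignment files refer to STAR, per the file headers. Coordinates are those of mm10, per the labels. Kit and aligner version: not given in the sources used here. Symbols and biotypes came from GENCODE M21 by identifier, which named 50376 of 50600.

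TPM were computed from the counts and the deposited exonic length. Library sizes came from TMM in edgeR 4.0.16 after filterByExpr, with DESeq2 1.42.0 size factors, total counts, TMM over isolated genes (farther than 5 kb from any gene of the other strand), no filter and each library left out as alternatives. Variation between libraries was tested by a Poisson chi-square test with Benjamini-Hochberg adjustment over 10662 genes at 0.05. The filter took all libraries as 1 group and so asked for a minimum in each. Genes near 0 in 1 library, such as Xist and Epb41l4aos, were thus not among the 10662 or in the shares called. Counts were also simulated over 10662 genes with Poisson error alone, the error that the test assumes. There it called 0.0956% of unchanged genes, 53% of those changed 1.5-fold and 100% of those changed 3-fold. That setting has no spread beyond counting error, so it checks the computation and gives no error rate for the real libraries. With 1 group no contrast of conditions was possible. Log2 ratios of TPM used a pseudocount of 0.1, and log2 CPM a prior of 0.5. Overlaps were found with bedtools 2.31.1. Nothing states that the libraries came from separate animals, so p-values speak of the spread among these libraries. How much of that spread is technical and how much biological was not tested. Xist had 665, 2393 and 1 counts in replicates 1, 2 and 3, and Y-linked Eif2s3y had 111, 0 and 53. Intervals cover counting error alone, since PCR duplicates were not told apart.

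The 8 genes, the lists and the tests were chosen with earlier results of these data known. Named were the 8 genes, their inner and opposite-strand features, for each gene list other than the cell type markers up to 4 of the highest and any with 0 counts, and the nearest gene to each of the 8. Snhg17, Snhg20 and Fbl were named after their values were seen. The symbols Snhg4, Snhg7, Snhg10, Snhg16 and Oip5os1 were not matched. Sequences were read from GENCODE M21 transcripts and RefSeq promoters.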

Additional observations from a re-analysis of the deposited data

How the results depend on the processing

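Malat1, Neat1 and Gas5 were called by the Poisson chi-square test under each scaling and filter tried and with each library left out, with the same library highest wherever it was kept. The number of the 8 genes called was 5, against 6649 of all 10662 genes tested (62.4%). It was 4 with DESeq2 size factors, against 6198 of 10662, and 4 with TMM over isolated genes, against 53.1%. It was 5 with no filter, where 8500 genes were called over all, and 8 with total counts, against 82.5% of all genes there. The cause was not tested. With each library left out it was 3 to 5. It was 5 without replicate 1, where 6377 genes were called over all. It was also 5 without replicate 2, where 5163 were called and Snhg6 did not pass the filter and was not tested. The 3 came without replicate 3, where 3302 of 11756 genes (28.1%) were called. Snhg12 was not called with DESeq2 size factors (adjusted p = 0.0764), and Snhg8 was called without replicate 2 (adjusted p = 0.0396). The number of separate neighbours in the order of levels was 4, and 4 with CPM, 4 with a pseudocount of 1 TPM, 3 over genes with at least 10 counts in every library (Snhg6 left out) and 4 to 6 with each library left out. On CPM the mean log2 ratio turned to −0.77 for Snhg8 over Snhg1 and to −3.67 for Snhg6 over Neat1, since CPM has no length correction. Malat1 was the 1 gene below an overlapping other-strand feature per base in all 3 libraries (1 to 1 with each library left out), and with features within 5 kb there were 2, Neat1 being added. No paired analysis was possible because there was 1 group. Depth limits Snhg6 the most, with 8 counts in replicate 3.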

Other observations

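The libraries with most Xist counts were not those with most counts of Y-linked genes, which are given as values with no test and were looked up after Xist was seen. Eif2s3y, a translation factor gene of the Y chromosome, had 111, 0 and 53 counts in replicates 1, 2 and 3, Ddx3y had 154, 3 and 80, Kdm5d had 97, 0 and 47 and Uty had 34, 1 and 5. Xist had 665, 2393 and 1 counts in the same order, so replicate 1 held counts of both, replicate 2 mostly of Xist and replicate 3 mostly of the Y-linked genes. The labels give 1 donor identifier for the 3 libraries and sex as not collected. Neat1 and Gas5 were highest in replicate 2 under both scalings given above and Malat1 in replicate 1. The part of this difference between libraries in the noncoding RNA values was not tested.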
